A study of Homo sapiens with 8 samples.

Results

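Transcripts of 10 genes that are used as surface, serum or lineage markers of ovarian carcinoma were followed in OVCAR3 cells, a human high-grade serous ovarian carcinoma line. The genes were chosen by symbol, with earlier results of these data known. They were the transmembrane mucins MUC16, MUC1 and MUC4, the secreted protein WFDC2, and the GPI-anchored proteins MSLN and FOLR1. The others were the junction and adhesion proteins CLDN3 and EPCAM and the transcription factors PAX8 and WT1. All 10 had a row among the 20165 genes of the count tables and all 10 were among the 14024 genes tested.

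Mucins are large glycoproteins with repeated stretches rich in serine and threonine that carry O-linked sugars. MUC16 is the protein that sheds the CA125 antigen, the serum marker used to follow ovarian carcinoma, and it binds mesothelin, the product of MSLN. WFDC2 encodes HE4, another serum marker. FOLR1 encodes folate receptor alpha, which like mesothelin is a target of antibody-based therapy. CLDN3 is a tight junction protein, and EPCAM is an epithelial adhesion protein. PAX8 marks Müllerian epithelium, from which the fallopian tube derives, and WT1 is a zinc finger factor that pathologists stain to recognise serous carcinoma.

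The RNA-seq libraries formed 4 groups of 2, all from the OVCAR3 line and all harvested 48 h after treatment. The siControl and siTARG1 cells received 30 nM of control siRNA or of siRNA against OARD1, the gene of TARG1, an enzyme that removes ADP-ribose from acidic residues of proteins. In the RACK1-WT and RACK1-Mut groups, lentiviruses carried an inducible shRNA against the cell's own RACK1 and an inducible HA-tagged RACK1 cDNA, wild-type or mutated at the ADP-ribosylation sites, and 1 µg/mL doxycycline (Dox) was given to both. RACK1 is a scaffold protein of the small ribosomal subunit. The libraries were the inputs of ribosome profiling, with which the study asked whether TARG1 and ADP-ribosylation of RACK1 affect translation. Here siTARG1 was compared with siControl, and RACK1-Mut with RACK1-WT, at the RNA level. The paper lists 2 siRNAs against TARG1, and the labels do not say which was used. Loss of TARG1 and other effects of the siRNA cannot be told apart in the first comparison, which is called TARG1 knockdown below. A comparison of RACK1-WT with siControl crosses the experiments, and it uses the same libraries as the others. The virus-infected line, the Dox, the replaced RACK1 at a lower RNA level and the absence of siRNA transfection cannot be told apart in it.

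Each library held 30989049 to 42668783 exon counts. Levels are CPM, exon counts per 1000000 counts of the library after TMM normalization. OARD1 was at 48.5 and 52.0 CPM in siControl and at 3.10 and 3.97 CPM in siTARG1. The 3′ untranslated region of RACK1, which the introduced cDNA lacks, was at 294 and 345 CPM in siControl and between 15.7 and 19.0 CPM in the RACK1 lines. Over all exons RACK1 was at 4622 and 4516 CPM in siControl, 1762 and 1898 CPM in RACK1-WT, and 1398 and 1454 CPM in RACK1-Mut. The RACK1 groups were thus not matched in RACK1 RNA to siControl or to each other, and the part of this in other differences was not tested. Markers of simple epithelium were abundant, with a summed level of 2003 to 3533 CPM over 7 genes. The sums were 38.4 to 56.5 CPM for mesothelium, nearly all of it UPK3B, and at most 11.5 CPM for fibroblast, leukocyte, endothelium and intestinal epithelium markers. CD3E, CDX1 and CDX2 were at 0 counts in all 8 libraries. In bulk RNA, fewer cells of a type and less RNA per cell cannot be told apart.

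MUC16 was lower in RACK1-WT than in siControl, whereas MUC1 and MUC4 were higher. Bases before a listed start of each of these 3 transmembrane mucins are shown as a description. They are the 120 bases upstream of the first listed RefSeq start on build GRCh38.p14, 5′ to 3′ on the gene's strand. MUC16 and MUC1 each had 2 listed starts and MUC4 had 1. The counts were made on another build, GRCh37, and the starts were not matched to the counted transcripts. A window, that of MUC16 included, may therefore lie away from the start of the counted gene. MUC1 lies at chr1:155192916-155193035, MUC4 at chr3:195811930-195812049 and MUC16 at chr19:9065752-9065871, all on the minus strand. Capitals mark matches on either strand to the GC box, searched as GGGCGG, and to the CCAAT box, searched by that name. Matches to the TATA box, searched as TATAAA on either strand, are also in capitals. The MCAT box was searched as CATTCC in the same way.
MUC1: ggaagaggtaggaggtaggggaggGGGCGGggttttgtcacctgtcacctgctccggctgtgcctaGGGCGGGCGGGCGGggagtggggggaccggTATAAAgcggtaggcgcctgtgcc
MUC4: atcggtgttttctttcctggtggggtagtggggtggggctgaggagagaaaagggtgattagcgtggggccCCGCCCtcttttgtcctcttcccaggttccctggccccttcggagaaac
MUC16: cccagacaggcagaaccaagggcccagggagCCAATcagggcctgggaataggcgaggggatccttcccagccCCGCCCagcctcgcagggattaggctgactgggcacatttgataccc
MUC1 held 4 GC boxes, 3 of which overlap one another, and a TATA box beginning 24 bases before the start. MUC4 held 1 GC box, and MUC16 held 1 GC box and 1 CCAAT box. None of the 3 windows held an MCAT box, and matches to different motifs did not overlap. Of 35116 promoter windows of this length, 34.0% held a GC box, 20.4% a CCAAT box, 5.63% a TATA box and 5.6% an MCAT box. Promoters of 7 members were in the table, and MSLN, FOLR1 and EPCAM had no entry. A match describes letters and does not show that a factor was bound.

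**Figure D1:**
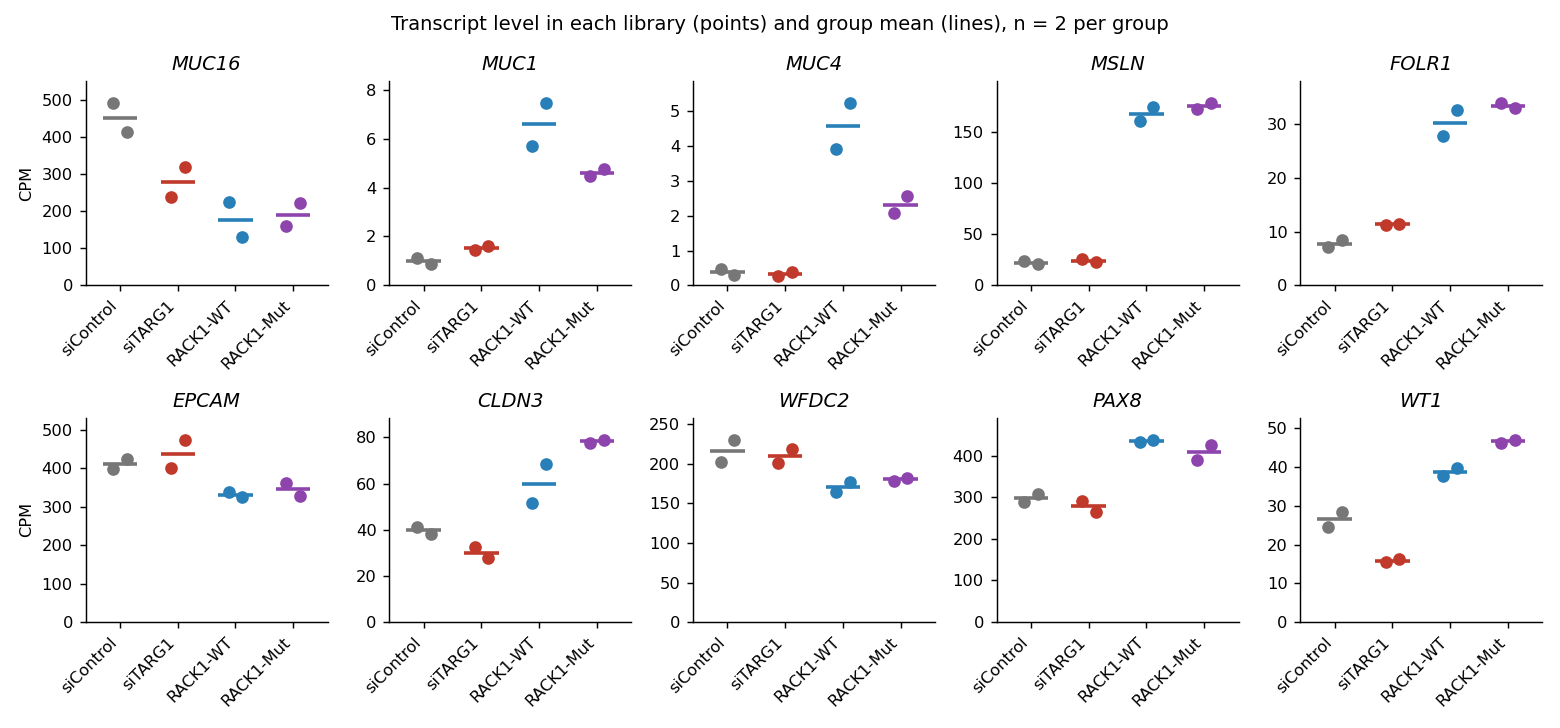
Level of each marker in CPM (linear axis from 0, scaled separately for each gene) in the 8 libraries. Points are libraries and lines are means of 2. MSLN sits between 21.4 and 25.8 CPM in the siRNA libraries and between 161 and 179 CPM in the RACK1 libraries, and MUC16 sits higher in siControl than in the other 3 groups.

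Per kilobase of exon, which allows genes to be compared, the order in siControl was WFDC2 with 353 ± 32.0 CPM per kilobase (SD, n = 2), EPCAM with 239 ± 10.8, PAX8 with 71.3 ± 3.19, CLDN3 with 31.2 ± 1.83, MUC16 with 10.3 ± 1.28, MSLN with 8.85 ± 0.556, WT1 with 8.51 ± 0.905, FOLR1 with 4.95 ± 0.515, MUC1 with 0.402 ± 0.0631 and MUC4 with 0.0225 ± 0.00753. The libraries of MSLN and WT1 overlapped, and those of the other neighbours in this order did not. MUC4 was the least abundant marker in this group, while the first place depended on the region counted: per kilobase of coding sequence EPCAM, at 321 CPM, stood above WFDC2, at 227 CPM, as it did in the other 3 groups. In siTARG1, FOLR1 with 7.21 ± 0.124 and MUC16 with 6.38 ± 1.30 CPM per kilobase (SD, n = 2) came before WT1 with 5.09 ± 0.215, and the libraries of FOLR1 and MUC16 overlapped. In RACK1-WT the order was WFDC2, EPCAM, PAX8, MSLN, CLDN3, FOLR1, WT1, MUC16, MUC1 and MUC4. MSLN, at 66.4 ± 3.92 CPM per kilobase in RACK1-WT and 69.4 ± 1.71 in RACK1-Mut (SD, n = 2), stood above CLDN3 in both RACK1 lines and below it in both siRNA groups. MUC16, at 4.03 ± 1.52 CPM per kilobase in RACK1-WT, overlapped MUC1 at 2.67 ± 0.498 (SD, n = 2). RACK1-Mut had the same order as RACK1-WT, with no overlap between neighbours.

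**Figure D2:**
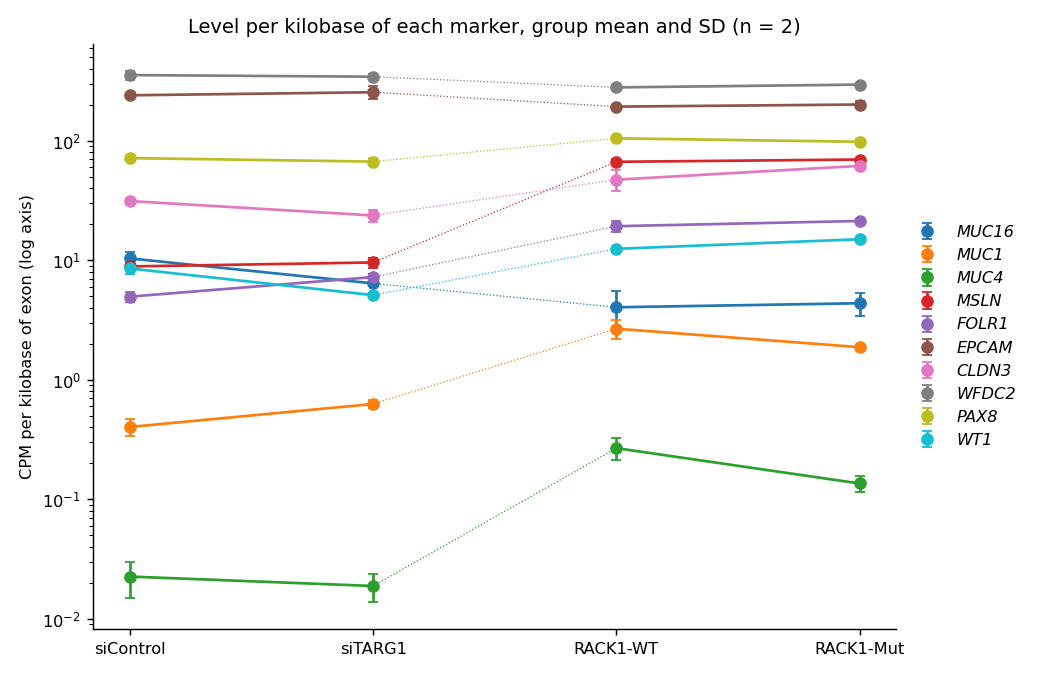
Mean level of each marker in CPM per kilobase of exon (log axis) in the 4 groups, with the SD of 2 libraries. Solid lines join the groups of one experiment and dotted lines cross the experiments. WFDC2 and EPCAM stay on top and MUC4 at the bottom in all 4 groups, while MSLN moves from 8.85 in siControl to 66.4 in RACK1-WT.

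Of the 10 markers, 5 differed between siTARG1 and siControl by edgeR's quasi-likelihood test (adjusted p under 0.05). FOLR1 and MUC1 rose, whereas 23.5% of all tested genes rose. MUC16, WT1 and CLDN3 fell, whereas 23.1% of all tested genes fell. The median log2 fold change of the 10 markers was -0.07, against 0.01 for all genes, and no marker changed by more than 1 on the log2 scale. RACK1-Mut against RACK1-WT gave no call among the markers with edgeR, which called 0.00713% of all tested genes, 1 gene. DESeq2, which called 17 of all genes, gave no call among the markers either. Of the 10 markers, 4 had an unadjusted p under 0.05 there (MUC1, MUC4, WT1 and CLDN3), as did 687 of all genes. Between RACK1-WT and siControl all 10 markers passed, 7 higher and 3 lower, against 31.9% of all genes higher and 31.4% lower. In that comparison 5 of the 10 markers differed by more than 1 on the log2 scale, as did 18.4% of all genes, and the median was 0.57 against -0.02. The effect of TARG1 knockdown and that of the RACK1 mutation differed for 5 markers (MUC16, MUC1, FOLR1, WT1 and CLDN3) in a test of the difference, as for 32.4% of all genes.

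**Figure D3:**
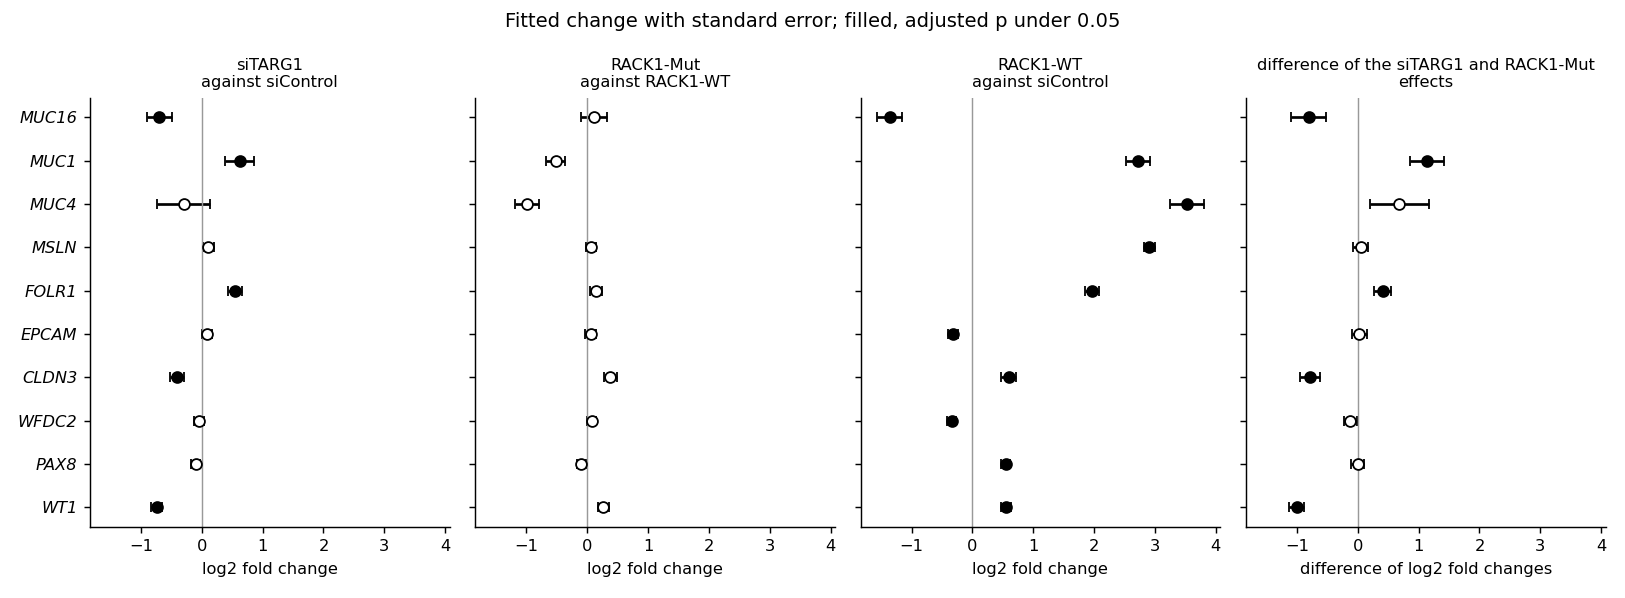
Fitted log2 fold change of each marker with its standard error in the 3 comparisons, and the difference between the TARG1 and RACK1 mutant effects in the last panel. Filled points passed an adjusted p of 0.05. MUC1, MUC4, MSLN and FOLR1 lie between 1.97 and 3.52 in RACK1-WT against siControl, and no point is filled in RACK1-Mut against RACK1-WT.

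MUC16 (ENSG00000181143, chr19:8959520-9121066 of GRCh37, minus strand) fell on TARG1 knockdown. It was at 492 and 413 CPM in siControl, 239 and 320 CPM in siTARG1, 224 and 129 CPM in RACK1-WT, and 161 and 221 CPM in RACK1-Mut. Both siControl libraries were above the other 6, and the 2 RACK1 groups overlapped each other. The log2 fold change with siTARG1 was -0.70 (SE 0.21, adjusted p = 0.013), a fall to 0.618 of the control. This call did not hold with DESeq2 (adjusted p = 0.11), without siControl replicate 1 (0.059) or without siTARG1 replicate 1 (0.069), and adjusted p ranged from 0.00028 to 0.11 over the alternatives. RACK1-Mut against RACK1-WT gave 0.11 (SE 0.21, adjusted p = 1), and the value was -0.23 without RACK1-WT replicate 2. RACK1-WT against siControl gave -1.36 (SE 0.21, adjusted p = 6.5e-05).

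The replicates of MUC16 differed at 4543 to 19626 counts per library. Replicate 2 against replicate 1 gave log2 ratios of -0.25 in siControl, 0.42 in siTARG1, -0.79 in RACK1-WT and 0.46 in RACK1-Mut. Of 508 other genes with at least 10 kb of exon and a mean log2 CPM of at least 2, the replicates of 28, 7, 0 and 8 were at least as far apart in these groups, in the same order. MUC16 has 43816 bases of exon with many near-identical repeats, and the aligner was allowed to keep reads that match many places. The part of either in the spread was not tested. Coding sequence alone gave a log2 ratio of -0.69 and the 3′ untranslated region -0.86 for siTARG1 against siControl. Coding sequence makes up 43524 of the exon bases, so its value nearly repeats that of all exons. The 3′ untranslated region has only 88 bases, with 96 to 217 counts per siRNA library.

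MUC1 (ENSG00000185499, chr1:155158300-155162707, minus strand), which lines the apical surface of glandular epithelia, was scarce in the siRNA groups. It was at 1.104 and 0.883 CPM in siControl, 1.47 and 1.63 CPM in siTARG1, 5.72 and 7.46 CPM in RACK1-WT, and 4.47 and 4.76 CPM in RACK1-Mut. No groups overlapped. The siTARG1 change was 0.62 (SE 0.24, adjusted p = 0.045) and rested on 27 to 68 counts per library. It lost the threshold in most alternatives, among them DESeq2 (adjusted p = 0.067), coding-sequence reads (0.11) and the removal of any one siControl, siTARG1 or RACK1-Mut library, with a range of 0.034 to 0.19. The RACK1-Mut change was -0.52 (SE 0.15, unadjusted p = 0.0046, adjusted p = 0.65). RACK1-WT stood 6.56-fold above siControl (log2 fold change 2.71, SE 0.20, adjusted p = 3.9e-08).

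MUC4 (ENSG00000145113, chr3:195473636-195538844, minus strand), a mucin that associates with ERBB2, had only 9 to 184 counts per library. It was at 0.477 and 0.294 CPM in siControl, 0.260 and 0.383 CPM in siTARG1, 3.91 and 5.24 CPM in RACK1-WT, and 2.07 and 2.56 CPM in RACK1-Mut. The siRNA groups overlapped and the RACK1 groups did not. RACK1-WT was 11.5-fold above siControl (log2 fold change 3.52, SE 0.28, adjusted p = 9e-08), and 323 of the 14024 genes changed more. RACK1-Mut was below RACK1-WT by a log2 fold change of -0.99 (SE 0.20, unadjusted p = 0.00022, adjusted p = 0.28). That difference passed when only the 4 RACK1 libraries were fitted (adjusted p = 0.0058) and without a filter on low counts (0.025), and adjusted p reached 1 in other alternatives. The siTARG1 change was -0.30 (SE 0.44, adjusted p = 0.61), with 0.11 on coding-sequence reads.

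WFDC2 (ENSG00000101443, chr20:44098393-44110172, plus strand) varied little. It was at 203 and 231 CPM in siControl, 202 and 219 CPM in siTARG1, 165 and 177 CPM in RACK1-WT, and 179 and 182 CPM in RACK1-Mut. The siRNA groups overlapped, and all 4 RACK1 libraries were below them. The changes were -0.05 with siTARG1 (SE 0.08, adjusted p = 0.67) and 0.08 with RACK1-Mut (SE 0.08). Against siControl, RACK1-WT gave -0.34 (SE 0.08, adjusted p = 0.0015), but coding-sequence reads gave -0.14 (adjusted p = 0.13). On the authors' RPKM scale, which moves the median of all genes by 0.41 in this comparison and by 0.12 in siTARG1 against siControl, the ratio of WFDC2 was 0.09 on the log2 scale and so lay below that median.

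MSLN (ENSG00000102854, chr16:810734-818865, plus strand) separated the experiments. It was at 23.4 and 21.4 CPM in siControl, 25.8 and 22.6 CPM in siTARG1, 161 and 175 CPM in RACK1-WT, and 172 and 179 CPM in RACK1-Mut. Groups overlapped within each experiment and not between them. The siTARG1 change was 0.11 (SE 0.09, adjusted p = 0.33) and the RACK1-Mut change 0.06 (SE 0.08). RACK1-WT was 7.49-fold above siControl (log2 fold change 2.91, SE 0.09, adjusted p = 8.7e-12), and the value stayed between 2.84 and 2.98 when any 1 library was left out.

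FOLR1 (ENSG00000110195, chr11:71900602-71907367, plus strand) rose on TARG1 knockdown. It was at 7.22 and 8.37 CPM in siControl, 11.2 and 11.5 CPM in siTARG1, 27.9 and 32.7 CPM in RACK1-WT, and 34.0 and 33.0 CPM in RACK1-Mut. No groups overlapped, and those with RACK1 re-expression were the highest. The siTARG1 change was 0.55 (SE 0.11, adjusted p = 0.0011), and its adjusted p stayed at or below 0.017 in the alternatives. RACK1-Mut gave 0.14 (SE 0.10) against RACK1-WT, and RACK1-WT gave 1.97 (SE 0.11, adjusted p = 2.1e-09) against siControl.

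CLDN3 (ENSG00000165215, chr7:73183327-73184600, minus strand) fell on TARG1 knockdown. It was at 41.4 and 38.1 CPM in siControl, 32.5 and 27.6 CPM in siTARG1, 51.5 and 68.3 CPM in RACK1-WT, and 77.4 and 79.0 CPM in RACK1-Mut. The groups did not overlap, and the RACK1-WT replicates were the farthest apart. The siTARG1 change was -0.40 (SE 0.12, adjusted p = 0.012), and the call did not hold without siControl replicate 1 (adjusted p = 0.075) or siTARG1 replicate 2 (0.065), the lowest adjusted p over the alternatives being 0.002. RACK1-Mut was higher than RACK1-WT by 0.38 (SE 0.11, unadjusted p = 0.0044, adjusted p = 0.65), with an adjusted p of 0.039 when only the RACK1 libraries were fitted and up to 1 otherwise. RACK1-WT against siControl gave 0.59 (SE 0.12, adjusted p = 0.00049).

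EPCAM (ENSG00000119888, chr2:47572297-47614740, plus strand) was at 399 and 425 CPM in siControl, 400.1 and 475 CPM in siTARG1, 339 and 324 CPM in RACK1-WT, and 362 and 328 CPM in RACK1-Mut. Groups overlapped within each experiment. The change was 0.09 with siTARG1 (SE 0.09, adjusted p = 0.44) and 0.06 with RACK1-Mut (SE 0.09). RACK1-WT was below siControl by a log2 fold change of -0.31 (SE 0.09, adjusted p = 0.0053), whereas the RPKM ratio was 0.12, again below the shift of all genes on that scale.

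PAX8 (ENSG00000125618, chr2:113973574-114036498, minus strand) differed between the experiments. It was at 289 and 308 CPM in siControl, 292 and 265 CPM in siTARG1, 434 and 439 CPM in RACK1-WT, and 390.1 and 427 CPM in RACK1-Mut. Values overlapped between siControl and siTARG1, and all RACK1 libraries were above both. The changes were -0.10 with siTARG1 (SE 0.07, adjusted p = 0.31) and -0.09 with RACK1-Mut (SE 0.07). RACK1-WT was above siControl by 0.55 (SE 0.07, adjusted p = 1.9e-05).

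WT1 (ENSG00000184937, chr11:32409321-32457110, minus strand) fell on TARG1 knockdown. It was at 24.6 and 28.6 CPM in siControl, 15.4 and 16.4 CPM in siTARG1, 37.7 and 39.9 CPM in RACK1-WT, and 46.2 and 47.1 CPM in RACK1-Mut. The 4 groups stood apart without overlap. The siTARG1 change was -0.74 (SE 0.09, adjusted p = 1.6e-05), it was called in every alternative run, and leaving out 1 library gave -0.83 to -0.62. The coding sequence gave -0.87 and the 3′ untranslated region -0.64. RACK1-Mut gave 0.27 (SE 0.09, unadjusted p = 0.0075, adjusted p = 0.77) against RACK1-WT, and RACK1-WT gave 0.55 (SE 0.09, adjusted p = 9e-05) against siControl. The effects of TARG1 knockdown and of the RACK1 mutation on WT1 differed by -1.004 (SE 0.13, adjusted p = 3.7e-05).

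Markers of simple epithelium moved with TARG1 knockdown. All 7 tested passed, 2 higher and 5 lower, beside 23.5% of all tested genes higher and 23.1% lower. Their summed level was 2003 to 2030 CPM in siTARG1 against 3136 to 3332 CPM in siControl. CDH1, which encodes E-cadherin, rose by 1.497 (SE 0.07, adjusted p = 1.7e-09) and KRT7 by 0.44, while the keratins KRT18 and KRT8 fell by 1.31 and 1.08 on the log2 scale. The part of this in the changes of MUC16, WT1, CLDN3, MUC1 and FOLR1 was not tested. In RACK1-WT against siControl 4 of 7 were higher and 2 lower, beside 31.9% and 31.4% of all tested genes. KRT7 was at 1.80, KRT19 at 1.47, ELF3 at -0.85 and KRT18 at -0.39 on the log2 scale. Of 5 leukocyte markers, CD14 rose and CD68 fell with siTARG1, and PTPRC and CD14 were among those higher in RACK1-WT, neither above 2.47 CPM in any library. Of 2 endothelium markers, KDR fell with siTARG1 and was higher in RACK1-WT. Of 5 fibroblast markers, PDGFRB rose and COL3A1 fell with siTARG1, and COL3A1 was higher and COL1A2 lower in RACK1-WT. COL3A1 had only 3 and 5 counts in siControl, 0 in each siTARG1 library, and 10 and 11 in RACK1-WT. The mesothelium markers CALB2 and UPK3B were lower in both comparisons, CALB2 with only 11 counts in each siControl library, 3 and 2 in siTARG1, and 0 and 2 in RACK1-WT. Neither intestinal marker tested passed. The part of these in the differences between RACK1-WT and siControl was not tested. RACK1-Mut against RACK1-WT gave no call in any list of markers or pathway genes.

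Among other mucins, 2 of 11 with a row passed the filter on low counts. MUC15, a membrane mucin, rose from 72.8 to 231 CPM on TARG1 knockdown (mean of 2, log2 fold change 1.67, SE 0.09, adjusted p = 6.6e-09) and was lower in RACK1-WT at 25.1 CPM (-1.54, adjusted p = 6.4e-09). MUC20 was higher in RACK1-WT (1.08, adjusted p = 3.9e-07). The direction of MUC15 was thus opposite to that of MUC16 on TARG1 knockdown, and both were lower in RACK1-WT.

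Of 21 tested enzymes that start or extend mucin O-glycans or shed surface proteins, 6 rose and 6 fell on TARG1 knockdown, shares close to those of all genes. GALNT1, which adds the first sugar, rose from 16.2 to 63.4 CPM (log2 fold change 1.98, SE 0.11, adjusted p = 7.4e-09) and the protease FURIN by 0.77. C1GALT1, which builds the core 1 structure, fell by 1.05 (SE 0.11, adjusted p = 2.4e-06) and GALNT6 by 0.69 on the log2 scale. In RACK1-WT against siControl 11 were higher and 5 lower, beside 31.9% and 31.4% of all tested genes. ST3GAL1 gave 2.57 from 1 to 15 counts per library and GALNT18 2.51, while GALNT5 gave -1.91 and GALNT11 -0.84. The members of this list therefore did not share a direction.

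Among 17 tested claudins and tight junction proteins, 5 rose and 2 fell on TARG1 knockdown, beside 23.5% and 23.1% of all tested genes. CLDN7 fell with CLDN3 (-0.21, adjusted p = 0.022). CLDN12 rose from 32.8 to 99.3 CPM (1.60, SE 0.08, adjusted p = 3.8e-09), and CLDN23 rose by 1.14. In RACK1-WT 8 were higher and 4 lower, beside 31.9% and 31.4% of all tested genes. CLDN16, a claudin of the renal tubule, was at 3.75 CPM in siControl and at 133 CPM in RACK1-WT (5.17, SE 0.16, adjusted p = 1.1e-11), and CLDN1 gave 2.16. CLDN11 (-0.82) and CLDN15 (-0.80) were lower.

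Of 16 tested folate uptake and one-carbon genes, 5 rose on TARG1 knockdown in addition to FOLR1, and 1 fell. Of all tested genes 23.5% rose and 23.1% fell. GGH, which removes glutamates from folates, rose by 0.59 (SE 0.10, adjusted p = 2.1e-04), and the mitochondrial enzyme MTHFD2 by 0.47, and the purine synthesis enzyme GART fell by 0.42 on the log2 scale. In RACK1-WT 7 were higher and 2 lower, beside 31.9% and 31.4% of all tested genes, with GGH at 0.92, ATIC at -0.46 and SHMT2 at -0.43. FOLR3, a secreted folate receptor, had 35 counts in RACK1-WT and 1 in siControl over both libraries, a ratio of 37.04 with an exact 95% interval of 6.23 to 1504 that covers counting error only.

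Of 11 tested Müllerian transcription factors and hormone receptors, 5 fell and 1 rose on TARG1 knockdown, beside 23.1% and 23.5% of all tested genes. The median log2 fold change of this list was -0.31, against 0.01 for all genes. LHX1 fell from 84.9 to 28.8 CPM (-1.56, SE 0.07, adjusted p = 2.2e-09), PGR, the progesterone receptor, by 1.90 from 19 counts in each siControl library, SOX17 by 0.55, EMX2 by 0.46 and HOXA9 by 0.25 on the log2 scale. HOXA11 rose by 1.13. Of the 2 transcription factors among the markers, WT1 fell and PAX8 was not past the threshold, and a link to this list was not tested. In RACK1-WT, GATA6 (1.056) was higher and HOXA7 (-0.78) and EMX2 (-0.33) lower. PGR was at 0 counts in both RACK1-WT libraries, so that it was at least 6.07-fold lower than in siControl, taking 3 counts per library as the limit.

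Secreted ovarian carcinoma markers were mostly higher in RACK1-WT than in siControl, with 12 of 15 higher and 2 lower and a median log2 fold change of 2.21. Over all tested genes 31.9% were higher and 31.4% lower, with a median of -0.02. KLK5, a secreted serine protease, went from 1.05 to 145 CPM (7.12, SE 0.11, adjusted p = 2.1e-14). KLK11 had 0 counts in siControl and was at least 8.84-fold higher. KLK6, KLK7, KLK10 and KLK13 of the same family were also higher, from at most 21 counts in any siControl library. The count and the median thus rest in part on a single gene family with few counts in siControl. Among the higher genes outside this family, log2 fold changes ran from 0.48 (IGFBP2) to 2.56 (SPON1). MDK (-1.12) and SLPI (-0.20) were lower, as WFDC2 was. On TARG1 knockdown PI3 (0.76) and CP (0.59) rose and SPON1 (-0.79), SLPI (-0.42) and LCN2 (-0.29) fell.

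Of 15 other surface antigens, 4 rose and 6 fell on TARG1 knockdown, beside 23.5% and 23.1% of all tested genes. L1CAM, a neural adhesion protein, went from 0.624 to 8.52 CPM (3.76, SE 0.19, adjusted p = 5.4e-09) and EGFR from 69.1 to 175 CPM (1.34, SE 0.09). LYPD1 fell by 1.66 and VTCN1, which encodes the checkpoint ligand B7-H4, by 1.21 on the log2 scale. In RACK1-WT 11 were higher and 2 lower, as were 7 and 3 of the 10 markers and 31.9% and 31.4% of all tested genes. L1CAM at 65.0 CPM (6.70) and LYPD1 at 22.7 CPM (1.94) were higher, and F3 (-1.41) and CDH6 (-0.68) lower. L1CAM was thus higher in both comparisons, which share the siControl libraries, whereas LYPD1 fell in the first and was higher in the second.

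**Figure D4:**
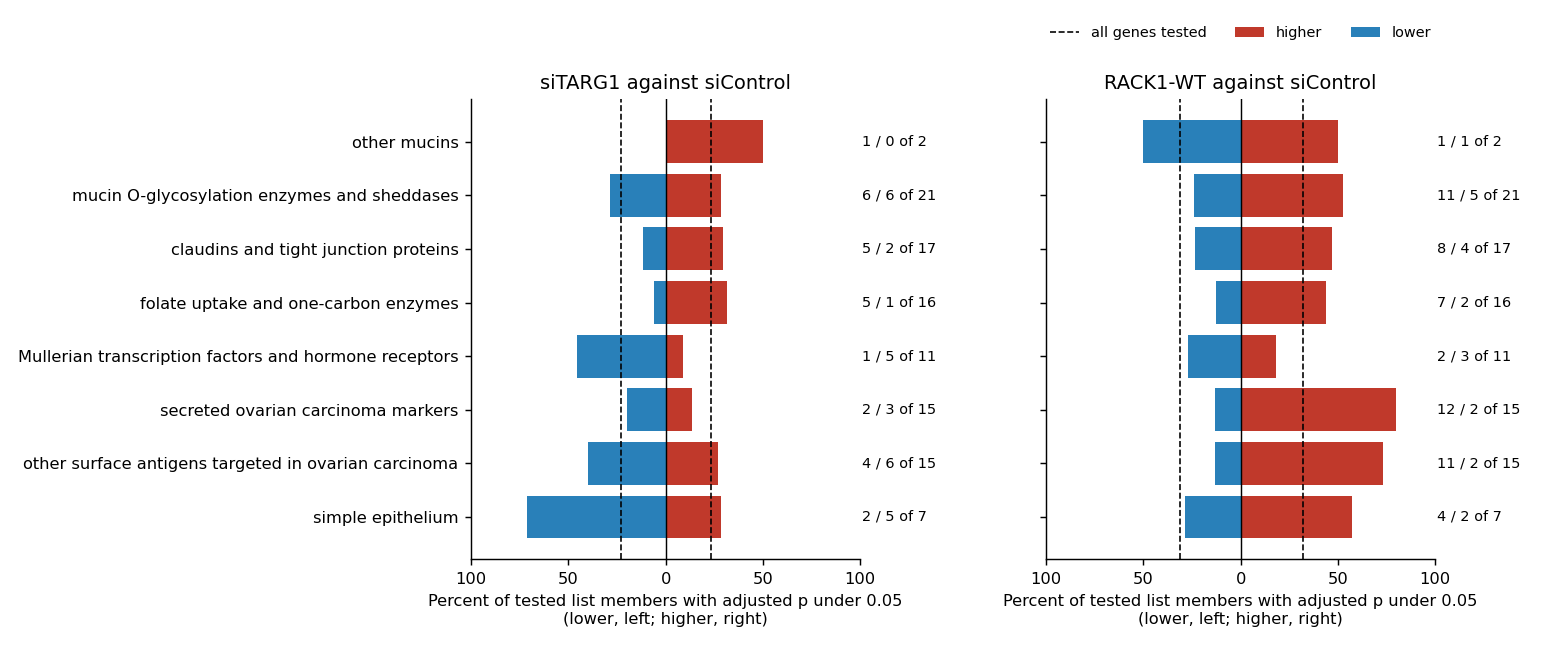
Percent of the tested genes of each list that were called lower (left) or higher (right) by edgeR with an adjusted p under 0.05, for siTARG1 and for RACK1-WT, each against siControl. Dashed lines give the percent of all genes tested (23.5 higher and 23.1 lower, and 31.9 higher and 31.4 lower), and the numbers beside the bars are higher, lower and tested genes. The secreted markers reach 12 of 15 higher in RACK1-WT and 2 of 15 in siTARG1.

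The genes most like 3 of the markers were sought by Pearson's r of log2 CPM over the 8 libraries, among 10878 genes with a mean log2 CPM of at least 2. For MUC16 they included ZNF160 (r = 0.970) and SP140L (0.968). For MSLN they were SLC4A11 (r = 0.999), PXDC1 (0.999) and NMU (0.999), with SLC4A11 at 21.0, 21.2, 65.0 and 69.3 CPM in siControl, siTARG1, RACK1-WT and RACK1-Mut. For PAX8 they were ALAS1 (r = 0.992), EPHB2 (0.991) and LPCAT3 (0.991). These values are a description: the libraries fall into the siRNA and the RACK1 experiment, and for MSLN and PAX8 the level follows that division.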

How the data were processed

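RNA-seq libraries of OVCAR3 cells, 2 in each of 4 groups taken from the sample labels, were analysed. Each library had its own table. The authors filtered reads against rRNA with Bowtie 1.1.2, aligned the rest to Gencode transcripts of GRCh37 with Tophat 2.1.1, which kept reads with many matches, and counted alignments per gene with Plastid. The deposited counts are estimated counts that need not be whole. The authors' RPKM divides them by region length and library alignments.

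Gene symbols and coordinates came from Gencode annotation on the same build, which held 94.7% of 36595 transcript names. A share of 1.19% of counts was in rows without a symbol. Exon counts were rounded and tested with edgeR 4.0.16 (limma 3.58.1, R 4.3.3): quasi-likelihood test, TMM, filterByExpr, a mean per group, 4 residual degrees of freedom, SE as the log2 fold change over the root of F, Benjamini-Hochberg adjustment over 14024 genes, threshold 0.05. CPM are TMM-scaled and, per kilobase, divided by exon length. Per the study's methods, sequencing was repeated with independent biological samples. The script was tested on simulated data.

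The 10 markers and the gene lists were chosen with earlier results of these data known. From each list, genes past the threshold are named where 5 or fewer passed, and otherwise the 2 highest and the 2 lowest. SOX17 and EMX2 on TARG1 knockdown were added after their values were seen. Alternatives were DESeq2 1.42.0, RLE normalization, no filter, a minimum of 10 counts per library, fits of only the groups compared, a replicate block, rows summed by symbol, coding-sequence reads, the RPKM scale for levels, and leaving out each library. Other steps used Python 3.11.15, pandas 2.3.3 and numpy 2.4.6. Ribosome profiling was not analysed here, and the results of some genes that these rules would name are not reported here.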

Additional observations from a re-analysis of the deposited data

Results flagged for a closer look

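The effects of TARG1 knockdown and of the RACK1 mutation differed for 5 markers when the difference itself was tested, with edgeR over all genes. Each value is the siTARG1 log2 fold change minus the RACK1-Mut log2 fold change. WT1 differed by -1.004 (SE 0.13, adjusted p = 3.7e-05), going from a mean of 26.6 to 15.9 CPM in one experiment and from 38.8 to 46.7 CPM in the other. CLDN3 differed by -0.79 (SE 0.16, adjusted p = 0.0021), with means of 39.7 and 30.1 CPM against 59.9 and 78.2 CPM. MUC1 differed by 1.14 (SE 0.28, adjusted p = 0.007), with means of 0.993 and 1.55 CPM against 6.59 and 4.62 CPM. These 3 differences stayed past the threshold in every alternative run. MUC16 differed by -0.81 (SE 0.29, adjusted p = 0.047), and the difference was -0.47 without RACK1-WT replicate 2 (adjusted p = 0.18) and -1.26 without RACK1-WT replicate 1. It was also not past the threshold with DESeq2 (0.24), with at least 10 counts in every library (0.052), or without siControl replicate 1 (0.098), siTARG1 replicate 1 (0.099) or RACK1-Mut replicate 2 (0.23), with a range of 0.002 to 0.24. FOLR1 differed by 0.41 (SE 0.15, adjusted p = 0.047), and it was not past the threshold with DESeq2 (0.064), or without siControl replicate 1 (0.20), RACK1-WT replicate 2 (0.22), or any one siTARG1 or RACK1-Mut library, with a range of 0.028 to 0.22.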

How the results depend on the processing

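Of the single-gene results under alternatives, 572 kept their direction and their side of the threshold, 28 lost the call, 3 gained one and 23 changed sign. Markers called for siTARG1 against siControl numbered 5, but 3 with DESeq2 and 2 to 5 when 1 library was left out, with 2 without siControl replicate 1. For RACK1-Mut against RACK1-WT they numbered 0, but 1 without a filter on low counts (MUC4) and 2 with only the libraries compared (MUC4 and CLDN3). Over all genes that comparison gave 1 call, against 17 with DESeq2, 15 without the filter, 49 with only the libraries compared, 2 on coding-sequence reads, 0 with at least 10 counts in every library and 0 to 9 with 1 library left out. The difference of the effects was called for 5 markers, but for 3 with DESeq2 and 3 to 5 with 1 library left out. RACK1-WT against siControl gave 10, also with DESeq2, but 9 of 10 on coding-sequence reads, where WFDC2 lost the call (edgeR, adjusted p = 0.13). It gave 9 of 9 with at least 10 counts in every library, which drops MUC4.

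Signs changed for small values. On coding-sequence reads, the siTARG1 change was 0.11 for MUC4 and 0.003 for WFDC2. The difference of the effects on PAX8 was 0.001 with DESeq2 and with RLE normalization, and 0.002 on coding-sequence reads. With 1 library left out, siTARG1 changes ranged from -0.61 to 0.14 for MUC4, -0.122 to 0.057 for WFDC2 and -0.051 to 0.204 for EPCAM. RACK1-Mut changes ranged from -0.23 to 0.56 for MUC16 and -0.014 to 0.128 for EPCAM, and differences of the effects from -0.053 to 0.128 for MSLN, -0.071 to 0.056 for PAX8 and -0.11 to 0.15 for EPCAM. The causes were not tested.

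With the replicate number as a block, 5, 0, 10 and 5 markers were called in the 4 comparisons, as without it. The block moved the calls over all genes from 6537 to 6559, 1 to 3, 8881 to 8908 and 4550 to 4588. Deviations of same-numbered libraries had a correlation of 0.26 between siControl and siTARG1 and 0.03 between RACK1-WT and RACK1-Mut, and nothing in the labels ties the numbers. The order of the levels was the same for all 10 markers on the RPKM scale. That scale divides the same exon counts by the same length, so it could not change the order within a library. Per kilobase of coding sequence the order was the same for 8 of 10 in the mean of the groups, where WFDC2 and EPCAM changed places. They did so in all 4 groups, and in siTARG1, with 6 of 10 in place, MSLN and FOLR1 did too. The 2 libraries per group limit precision, and counting limits MUC4 and MUC1.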
